A study of Bos grunniens with 18 samples.

Results

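N6-methyladenosine (m6A) is a methyl mark on adenosines inside messenger RNA. It is written by a complex around METTL3 and METTL14, removed by FTO and ALKBH5, and bound by readers such as the YTH proteins, through which it bears on splicing, translation and decay of a transcript. In mammalian messenger RNA the mark is known to gather near stop codons, in 3′ UTRs and in long internal exons. The data described here are the m6A peaks of the estrus (YO-F) ovary of the yak, that is, stretches of RNA enriched by an m6A antibody over the input RNA. All complete entries of the estrus list were taken. The copies of the lists used here each stop within a line, so their numbers of peaks are not totals of the stages and cannot be compared with each other. The complete estrus entries are 18 peaks in 11 genes, out of 309 complete peaks in the lists of the 3 stages (9 from anestrus, 18 from estrus and 282 from pregnancy).

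The ovaries came from healthy adult yaks of one age. They were collected after slaughter in April (anestrus, YO-A), August (estrus or follicular phase, YO-F) and December (pregnancy, YO-P), so stage and month cannot be told apart. Each stage has 3 immunoprecipitated (IP) and 3 input libraries of poly(A) RNA from whole ovarian tissue, which makes 18 samples, of which 6 are from estrus. The labels name no treatment or genetic change in any group. The peaks come as 1 list per stage, so replicates cannot be separated, a peak has no replicate error, and peak values are given as descriptions. Input levels are in FPKM (fragments per kilobase of exon, scaled to the mapped reads of the library), and the number of reads behind a peak or an FPKM value is unknown.

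Only part of each table was analysed here. The estrus peaks lie on the plus strand of chromosome 1 between 956570 and 36965772, and the expression table covers 173 genes. Of the 85 genes in 10 lists (m6A writers, m6A erasers and readers, and markers of granulosa, theca and luteal, oocyte, ciliated, smooth muscle, endothelial, T and macrophage cells), 2 are in that table, CD96 and CD84. None of the 9 m6A writers or of the 12 erasers and readers is among them, so neither the ovarian label nor the m6A machinery could be checked. The estrus input library 2 stood apart from the others. Across 130 genes its median correlation with the other libraries was 0.800, against 0.928 to 0.960 for each of the other 8. The study left it out of its expression analysis, and whether its IP library is part of the peak list is not given in the sources used here. Input levels are therefore given for each estrus library, and the tests between stages were made without library 2, with the values that include it given where they change a call or move a difference by over 1.5 times.

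The estrus peaks were found in 3 transcription regulators (VGLL3, GABPA and BACH1), the splicing regulator RBM11, the deubiquitinases USP25 and USP16, the membrane proteins CXADR, EVA1C and IFNAR1, and 2 genes without a symbol, ENSBGRG00000000034 and ENSBGRG00000000131. Fold enrichment, the ratio of IP to input given by the authors' peak caller, ranged from 1.70 to 108 with a median of 3.95. It was above 10 in 4 peaks and under 3 in 6 peaks. The log10 of the p-value ranged from -1.39 to -233 with a median of -8.50. The false discovery rate (FDR) was over 0.05 in 2 peaks, 0.115 in ENSBGRG00000000034 and 0.127 in IFNAR1.

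The order of the peaks by fold enrichment was not their order by p-value. Across the 18 peaks Spearman's rho between fold enrichment and log10 p was -0.275, a description over peaks that share libraries and, in part, genes. GABPA peak 3 had the largest fold enrichment (108) and the fourth lowest log10 p (-100). EVA1C peak 1 had the lowest log10 p (-233) with a fold enrichment of 10.4. VGLL3 ranked 2 of 18 by fold enrichment (13.8) but 12 of 18 by p, with a log10 p of -3.27. USP16 and USP25 showed the reverse, with log10 p of -188 and -23.5 at fold enrichments of 3.89 and 1.77.

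**Figure D1:**
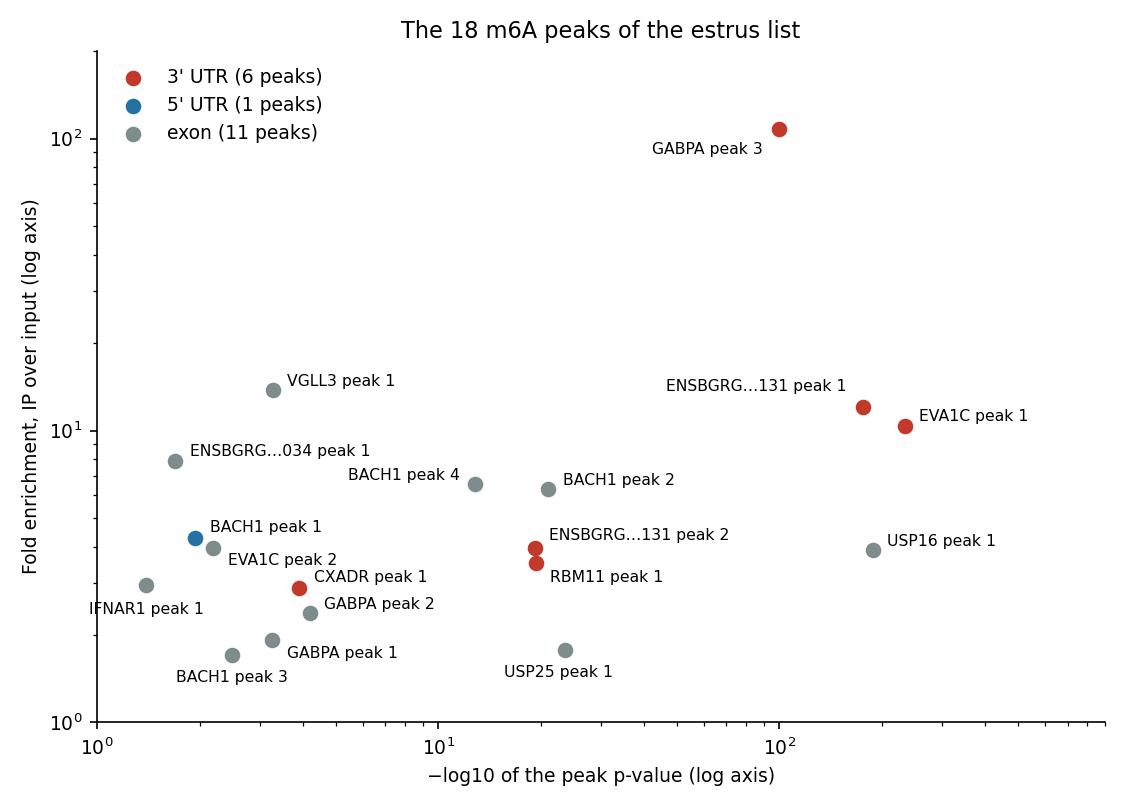
Fold enrichment of IP over input against −log10 of the p-value for each of the 18 estrus peaks, both on log axes, with 1 point per peak, coloured by the annotated region. GABPA peak 3 lies alone at 108, and the points with the lowest p-values (EVA1C peak 1, USP16 and ENSBGRG00000000131 peak 1) have fold enrichments of 3.89 to 12.0.

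By the authors' annotation 6 peaks in 5 genes were in a 3′ UTR, 1 in a 5′ UTR and 11 in other exons. Median fold enrichment was 7.18 for 3′ UTR peaks (range 2.89 to 108) and 3.89 for exon peaks (range 1.70 to 13.8). The median log10 p was -59.7 and -3.27, respectively. The ranges overlap, and the classes were not tested against each other since peaks are not replicates. A label does not place all bases of a peak in that region, as given below. Both peaks with an FDR over 0.05 were exon peaks. Of the 11 exon peaks, 3 were annotated to the last exon of their transcript. These were BACH1 peak 4 (exon 4 of 4), EVA1C peak 2 (exon 6 of 6) and ENSBGRG00000000034 (exon 2 of 2). In EVA1C peak 2 the first 87 exon bases lay in that exon, and the other 63 lay beyond the end of the assigned transcript.

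Many peaks ended close to the 3′ end of a gene model. In 6 peaks the last base was within 500 bases of the gene end, and in 3 of these (USP25, CXADR and BACH1 peak 4) it was the last annotated base of the gene. When the end of the assigned transcript was counted as well, the number was 8 of 18, with EVA1C peak 1 at 43 bases and ENSBGRG00000000034 at 89 bases from that end. RBM11 and ENSBGRG00000000131 peak 1 followed, at 988 and 599 bases from the gene end. The remaining 8 peaks were 1553 to 42570 bases away.

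A peak could run over several exons, and its span then included introns. The span from first to last base was 120 to 26562 bases with a median of 1091.5, whereas the exon blocks inside it added up to 91 to 1040 bases with a median of 270.5. Of the 18 peaks, 10 had more than 1 block. The annotated region of such a peak did not always name the exon with most of its bases. USP25 was annotated to exon 25 of 26, but 7 of its 180 exon bases lay in its first block and 173 in its last block, which ends at the gene end. CXADR was annotated to a 3′ UTR, where it had 84 bases, and its other 125 bases lay at the end of a longer transcript, at 18071019 to 18071143. GABPA peak 3, also annotated to a 3′ UTR, had blocks of 103, 141, 193 and 341 bases, so its last block held 341 of its 778 exon bases. ENSBGRG00000000131 peak 1 had the same label, but its last block, 965 of its 1019 exon bases, ran past the end of the assigned transcript.

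**Figure D2:**
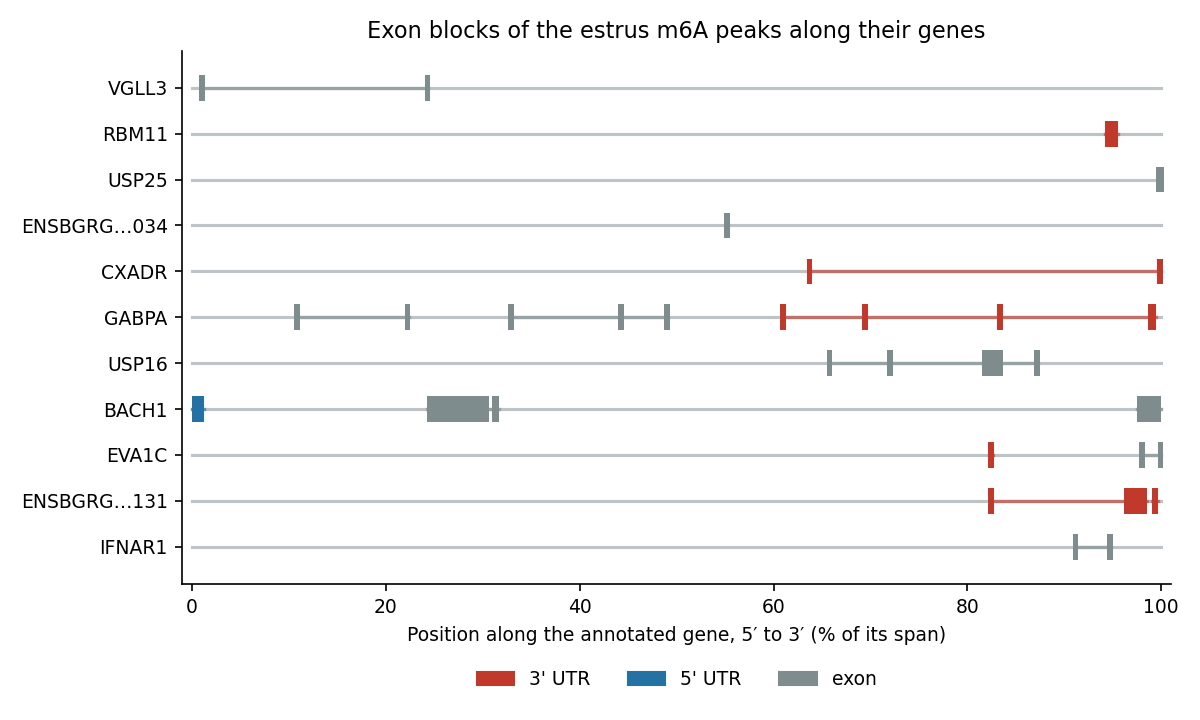
Exon blocks (boxes) of the 18 estrus peaks along the 11 genes, drawn as a percentage of the gene span from 5′ to 3′, with blocks of 1 peak joined by a line, coloured by annotated region. Short blocks are widened to stay visible, and blocks of 8 genes reach beyond 90% of the gene span.

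The number of peaks per gene was 1 in 7 genes, 2 in EVA1C and ENSBGRG00000000131, 3 in GABPA and 4 in BACH1. BACH1, a heme-regulated repressor of antioxidant genes, carried its peaks at the 5′ end, in exon 2 and at the 3′ end of the gene (chromosome 1, 31783463 to 31799779). Peak 1 started at the first base in the 5′ UTR (fold enrichment 4.28, log10 p -1.94). Peak 2 covered 1040 bases of exon 2 of 4 (31787417 to 31788456, fold enrichment 6.30, log10 p -21.0). Peak 3 followed in the same exon with 120 bases and a fold enrichment of 1.70, the lowest of the list. Peak 4 covered the last 416 bases of the gene (31799364 to 31799779, fold enrichment 6.54, log10 p -12.8). The peaks in the long second exon and at the gene end thus had close fold enrichments, and those at the 5′ end and in the rest of exon 2 had weaker p-values.

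GABPA is the DNA-binding subunit of an ETS factor that acts on genes of the mitochondria (chromosome 1, 27525032 to 27568278). Its 3 peaks differed by a factor of 56.3 in fold enrichment, the widest spread within a gene. Peak 1 (27529677 to 27534702) started in exon 2 of 10 and had 150 exon bases with a fold enrichment of 1.92. Peak 2 (27539262 to 27546263) started in exon 4 of 10 and had 389 exon bases with a fold enrichment of 2.37. Peak 3 (27551366 to 27568039) had 778 exon bases, a fold enrichment of 108 and an end 239 bases before the gene end. The log10 p was -100 in peak 3 against -3.26 and -4.20 in the others.

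VGLL3, a cofactor of the TEAD transcription factors, had 1 peak (chromosome 1, 956570 to 969695) near the 5′ end of the gene, which started in exon 1 of 5. It held 44 and 47 bases in 2 blocks, the smallest number of exon bases in the list, at a fold enrichment of 13.8. RBM11, an RNA-binding protein of alternative splicing, had 1 peak of 301 bases in its 3′ UTR (14233257 to 14233557, fold enrichment 3.51, log10 p -19.3).

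USP16 removes ubiquitin from histone H2A, and its peak (31440744 to 31447434) had 927 exon bases in 4 blocks, of which 1 block held 664. USP25, another deubiquitinase, had the peak at its gene end described above (16186709 to 16187193). Both had low p-values at fold enrichments below 4. These were also the members with the highest mean input levels, given below.

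Among the membrane proteins, CXADR, a tight junction protein and virus receptor, had 1 peak (18044582 to 18071143, fold enrichment 2.89, log10 p -3.91). EVA1C, a heparin-binding membrane protein, had a peak of 506 bases in the 3′ UTR of a shorter transcript (36073787 to 36074292, fold enrichment 10.4). A second was annotated to exon 6 of 6 of a longer transcript and ran past its end (36097158 to 36100025, fold enrichment 3.95, log10 p -2.19). IFNAR1, a subunit of the type I interferon receptor, had the weakest peak (36964630 to 36965772, exon 10 of 11, fold enrichment 2.96, log10 p -1.39). ENSBGRG00000000131, a gene annotated to Jak-STAT signaling and to cytokine receptor interaction (chromosome 1, 36786295 to 36826818), had 2 peaks with a 3′ UTR label. The first (36819664 to 36826219) had 1019 exon bases with a fold enrichment of 12.0 and a log10 p of -176, and the second (36826429 to 36826668) had 240 bases with 3.95 and -19.2. ENSBGRG00000000034, for which the file gives no description, had a peak of 451 bases (16704697 to 16705147) with a fold enrichment of 7.89 and a log10 p of -1.69.

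Input levels were then set beside the peaks. The expression table holds 31 genes on the stretch that the estrus list covers, 11 with a listed peak and 20 without. Mean FPKM over the 3 estrus inputs ranged from 0.0503 to 20.2 in the genes with a peak (median 5.92) and from 0 to 112 in the genes without (median 1.23). Differences of medians are given next on the log2(FPKM + 0.1) scale, which understates differences between low genes. In library 1, the median was 2.46 with a peak and 0.20 without, a difference of 2.26. In library 2, the medians were 2.55 and -0.76, a difference of 3.31. In library 3, they were 1.95 and 0.083, a difference of 1.87.

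Genes with a peak thus had the higher median in 3 of 3 libraries, over the same genes each time. The peaks were called against estrus input, so the listing of a gene and its input level are not independent. On the mean of the 3 libraries the difference was 2.52, with an SD of 0.745 between libraries (n = 3), and no test was made since genes are not replicates. A mean FPKM of at least 1 was found in 10 of 11 genes with a peak and in 10 of 20 genes without, and among these the difference was -0.23. The groups also differed in gene span, with a median of 43247 bases with a peak and 17222 without. Of the genes without a peak, 8 spanned under 3000 bases, as did 0 of those with one. Among genes with a symbol the difference was 0.41 (9 with and 11 without a peak), an alternative chosen after seeing the data. With only peaks of a fold enrichment of at least 3, it was 1.11.

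**Figure D3:**
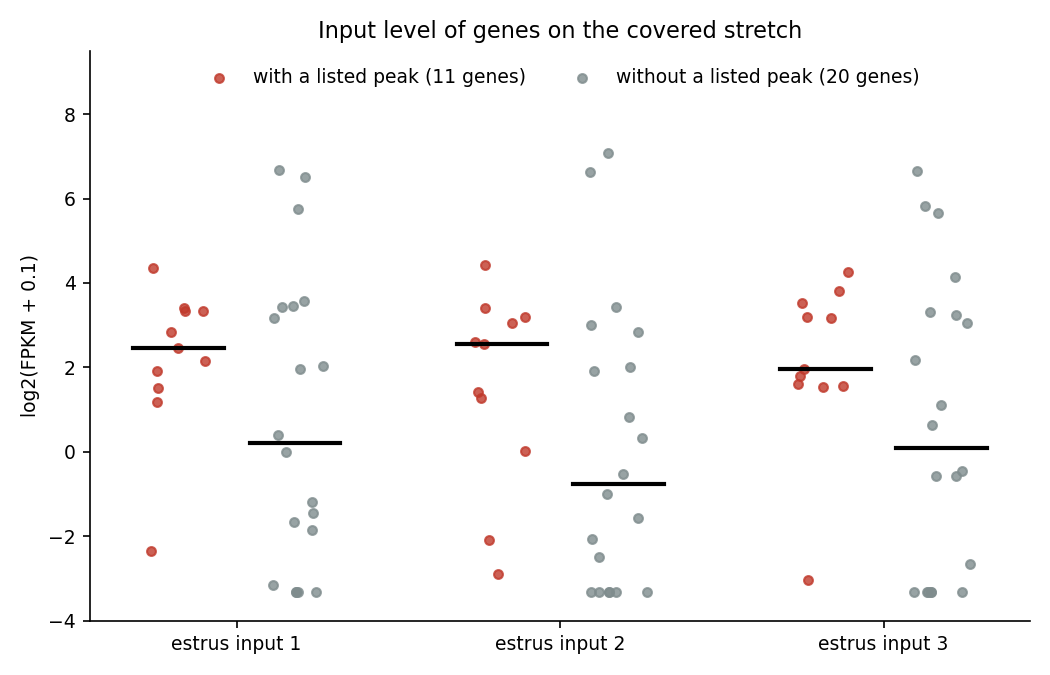
Input level as log2(FPKM + 0.1) in each estrus library for the 31 genes on the covered stretch, with 1 point per gene and the median as a bar. Medians of genes with a listed peak (1.95 to 2.55) lie above those of genes without (-0.76 to 0.20), and the highest points in each library are genes without a listed peak.

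By level, a listed peak was found in 1 of 7 genes with a mean FPKM under 0.1, in 0 of 4 genes from 0.1 to 1, in 4 of 8 from 1 to 5, in 5 of 8 from 5 to 20, and in 1 of 4 at 20 or above. Over the whole stretch 11 of 31 genes had one, so the 1 of 4 in the highest class rests on too few genes to set that class apart. The 3 genes of that class without a peak were SOD1, ENSBGRG00000000028 and JAM2. SOD1, the cytosolic superoxide dismutase, had FPKM values of 101.8, 134.6 and 99.97 in estrus libraries 1, 2 and 3. ENSBGRG00000000028, a gene of 204 bases, had 90.7, 99.2 and 56.2. JAM2, a junctional adhesion molecule of vessels, had 53.9, 7.88 and 50.2, with library 2 far below the others.

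At the low end of the genes without a peak and with a mean of at least 1 were HUNK, a protein kinase (0.336, 3.67 and 0.577), ENSBGRG00000000079 (3.82, 0.404 and 4.40) and CHODL, a membrane lectin (3.98, 1.66 and 8.13). In all of these library 2 was the highest or the lowest of the estrus values. IL10RB, which lies between ENSBGRG00000000131 and IFNAR1 and encodes a subunit of cytokine receptors, had no listed peak at 10.9, 7.05 and 9.41. It was chosen after its values were seen.

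Within the genes with a peak, USP16 had the highest level, with FPKM values of 20.2, 21.3 and 19.0 in estrus libraries 1, 2 and 3. USP25 had 10.6, 9.12 and 13.9, and GABPA had 9.96, 8.25 and 8.96. The SD between the estrus libraries was 1.10 in USP16, 2.45 in USP25 and 0.861 in GABPA. USP16 lay above all other genes with a peak in each library, while USP25 and GABPA overlapped.

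ENSBGRG00000000131 had 9.93, 6.02 and 9.09, IFNAR1 had 7.04, 5.78 and 11.4, and EVA1C had 4.36, 10.6 and 2.85. RBM11 had 5.41, 2.55 and 3.77. CXADR had 2.74, 2.32 and 3.37. Each of these genes overlapped its neighbours in the order of the means, so the order of neighbours cannot be read from 3 libraries. ENSBGRG00000000131 and IFNAR1 did lie above RBM11 and CXADR in each library.

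BACH1 had 3.67, 0.921 and 2.92, and VGLL3 had 2.18, 0.135 and 2.81. ENSBGRG00000000034 had 0.0947, 0.0343 and 0.0218. BACH1 and VGLL3 overlapped, and ENSBGRG00000000034 lay below every other gene with a peak in each library. This gene was thus close to undetected in the input although its listed fold enrichment ranked 5 of 18. The part that the low input has in that value was not tested. Across the 18 peaks, Spearman's rho of fold enrichment with the mean FPKM of the gene was -0.309, and that of log10 p with mean FPKM was -0.488, as descriptions. Log10 p with exon bases gave a rho of -0.682. Fold enrichment is a ratio to input, so it is not independent of the input level. Across the 11 genes, the number of peaks had a rho of 0.0634 with mean FPKM.

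In library 2, 4 of the 11 genes lay below and 2 above the range of the other 8 input libraries. The share of all genes outside that range was not counted. Library 2 stood apart across the 130 genes (median correlation 0.800), so these counts are not read as a trait of genes with a peak. BACH1 (0.921 against 2.79 to 5.43) and VGLL3 (0.135 against 2.18 to 6.41) were below it, as were ENSBGRG00000000131 and IFNAR1. EVA1C (10.6 against 2.83 to 5.11) and USP16 (21.3 against 16.7 to 20.2) were above it. EVA1C is also the gene of the peak with the lowest p-value. Since the list is not split by library, the part of library 2 in that peak was not tested.

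**Figure D4:**
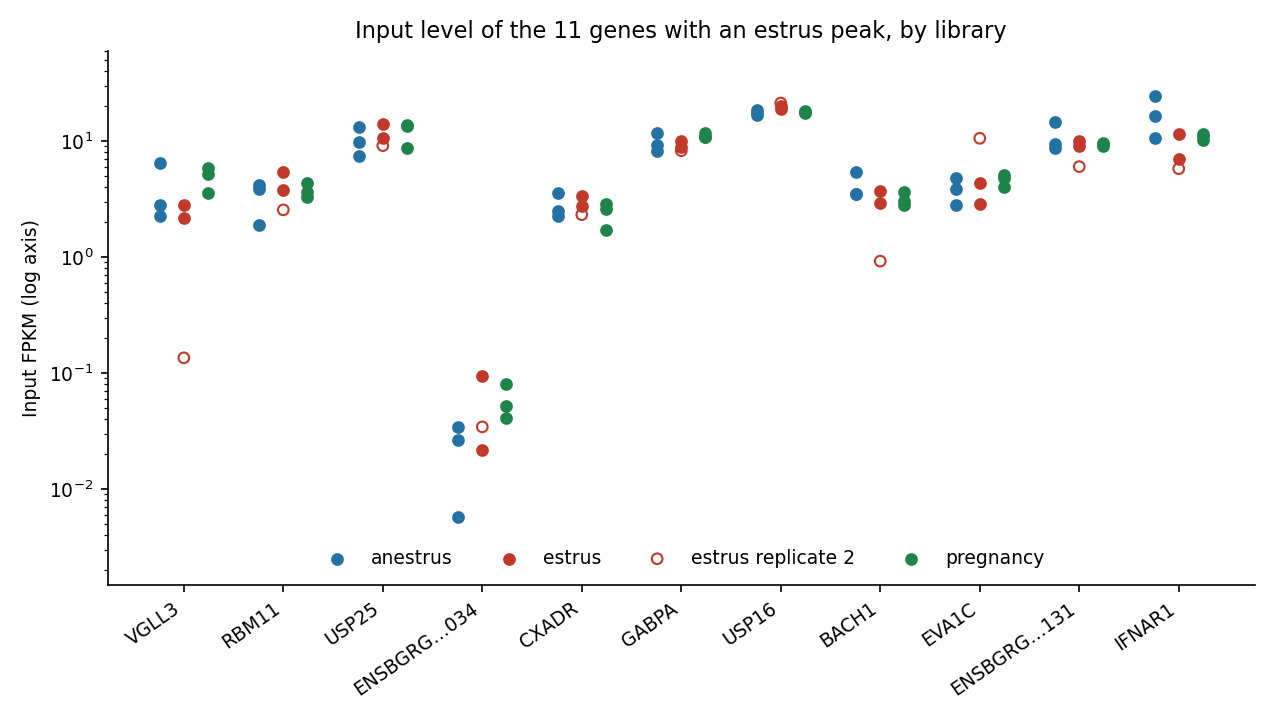
Input FPKM on a log axis of the 11 genes with an estrus peak in the 9 input libraries, with 1 point per library, coloured by stage, and estrus replicate 2 as an open circle. The open circle lies below all other libraries in VGLL3 and BACH1 and above them in EVA1C.

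To ask whether the genes with an estrus peak also differ in RNA level between stages, input levels were compared with limma on log2(FPKM + 0.1) over the 130 genes whose mean FPKM reached 0.1, without estrus library 2. Of the 11 genes, 10 passed this minimum and ENSBGRG00000000034 did not. A gene was called by the standard of the study, a log2 change of 1 or more in either direction with an unadjusted p under 0.05. In whole ovary, a difference can stem from fewer cells of a type or from less RNA per cell, which cannot be told apart. Both comparisons use the same estrus libraries.

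In estrus against anestrus, 0 of the 10 genes were called, against 1.54% of all genes tested. By limma 1 of the 10 had an unadjusted p under 0.05 (9.23% of all genes), and 0 had a Benjamini-Hochberg adjusted p under 0.05 (0% of all genes). The gene was IFNAR1, with 7.04 and 11.4 in estrus libraries 1 and 3 and 10.6 to 24.6 in anestrus, so that the stages overlapped. Estrus minus anestrus was -0.85 ± 0.33 (SE) on the log2 scale, with limma's adjusted p at 0.502. IFNAR1 was called with estrus library 2 included (-1.06), without anestrus replicate 3 (-1.15) and without estrus replicate 3 (-1.19). It was not called, and the difference was smaller, without estrus replicate 1 (-0.50) and without anestrus replicate 2 (-0.55). USP16 was the only member without overlap of the stages, with 20.2 and 19.0 in estrus and 16.7 to 18.5 in anestrus, at a log2 difference of 0.17 ± 0.13 (SE; limma adjusted p = 0.743). Such lack of overlap was seen in 19.2% of all genes, with estrus higher in 12.3% and lower in 6.92%. With estrus library 2 included, VGLL3 went from -0.46 to -1.61 and BACH1 from -0.30 to -0.88 against anestrus, and neither was called. ENSBGRG00000000131 went from -0.15 to -0.37. RBM11, USP25 and CXADR moved closer to 0, at 0.25, 0.16 and 0.027, and GABPA was at -0.084. EVA1C turned from -0.085 to 0.43. The median log2 fold change was -0.052 over the 10 genes and 0.071 over all genes, with 4 members above 0 and 6 below.

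In estrus against pregnancy, 0 of the 10 genes were called, against 2.31% of all genes tested, and 0 had an unadjusted p under 0.05 (9.23% of all genes) or an adjusted p under 0.05 (0% of all genes) by limma. The smallest adjusted p was 0.535, in VGLL3, which had 2.18 and 2.81 in estrus and 3.55 to 5.80 in pregnancy. The log2 difference, estrus minus pregnancy, was -0.91 ± 0.44 (SE). With estrus library 2 included VGLL3 was called, at -2.06 ± 0.89 (SE; limma adjusted p = 0.442), and it was also called with the replicate number as a block, at -1.16. With that library IFNAR1 went from -0.27 to -0.48 and CXADR from 0.36 to 0.23 against pregnancy, while RBM11, USP25, BACH1 and ENSBGRG00000000131 turned from differences above 0 (0.27, 0.048, 0.059 and 0.023) to below 0 (-0.0021, -0.088, -0.52 and -0.19). EVA1C turned from -0.38 to 0.14. None of these was called. The stages did not overlap in VGLL3 and GABPA, which were lower in estrus, and in USP16, which was higher, and they did not overlap in these genes with library 2 counted either. That is 3 of 10 genes, against 26.9% of all genes (lower in 6.92% and higher in 20%). GABPA had 9.96 and 8.96 in estrus and 10.8 to 11.8 in pregnancy, a log2 difference of -0.24 ± 0.19 (SE; limma adjusted p = 0.739). The median log2 fold change was 0.036 over the 10 genes and 0.067 over all genes.

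The estrus peaks were finally set beside the lists of the other stages, on the stretch that both lists cover. These are single lists, so no difference between stages was tested. With pregnancy, the shared stretch reaches to 36965772 and holds 18 estrus and 12 pregnancy peaks. By an overlap of at least 1 base, 8 estrus peaks (44.4%) had a pregnancy peak and 8 pregnancy peaks (66.7%) had an estrus peak. Exon bases under peaks were 7295 in estrus and 5713 in pregnancy, and median fold enrichment was 3.95 and 5.06. By gene, 8 of the 11 estrus genes and of 10 pregnancy genes were in both lists on this stretch. IFNAR1 is not counted as shared, since its pregnancy peak (36967089 to 36967325) starts beyond the end of the stretch. RBM11 is not counted either, since the pregnancy peak on its first exon is assigned to LIPI.

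Fold enrichment was higher in estrus in 5 of the 9 overlapping pairs with pregnancy and lower in 4. In USP25 it was 1.77 in estrus and 2.24 in pregnancy, in USP16 3.89 and 5.25, and in BACH1 peak 2 it was 6.30 and 8.47. In EVA1C peak 1 it was 10.4 and 7.17. In ENSBGRG00000000131 peak 1 it was 12.0, against 8.83 and 2.70 in the pregnancy peaks that it overlaps. These values lie within a factor of 4.44 of each other, with GABPA peak 3 as the exception.

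In GABPA peak 3 fold enrichment was 108 in estrus and 3.57 in pregnancy, a ratio of 30.3, while the log10 p was -100 and -76.7. These entries do not cover the same bases. The pregnancy peak (27555041 to 27567800) had 389 exon bases, all inside the 778 exon bases of the estrus peak. Input FPKM of GABPA over the whole gene was 8.25 to 9.96 in estrus and 10.8 to 11.8 in pregnancy. The input under the blocks of the peaks is not analysed here, and its part in the ratio was not tested.

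**Figure D5:**
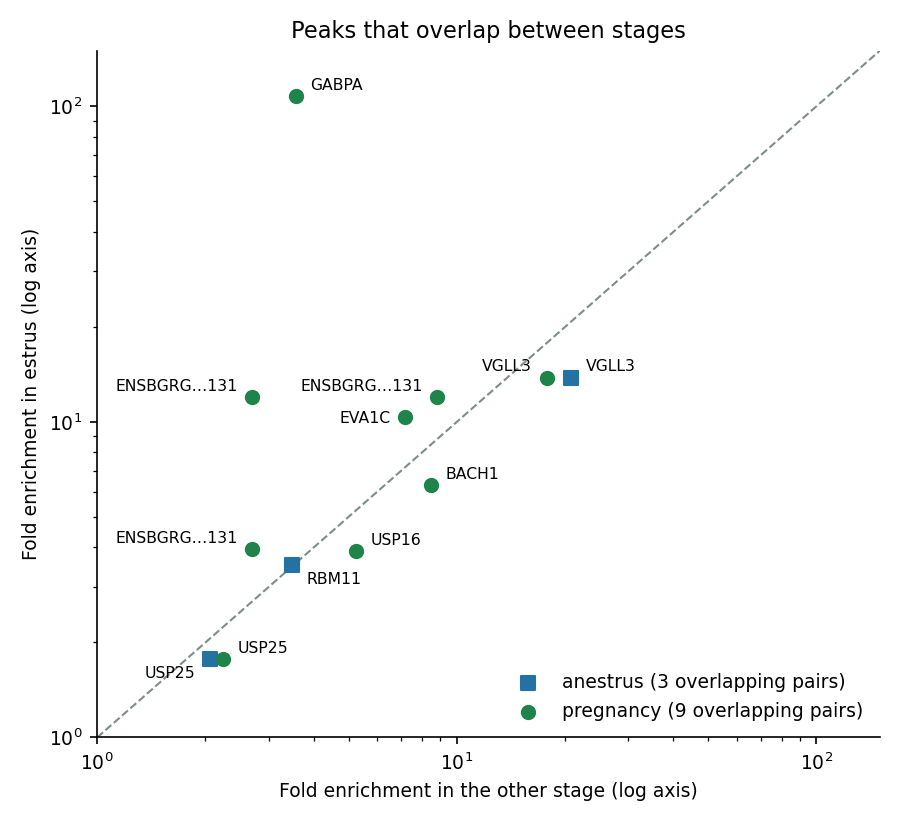
Fold enrichment of estrus peaks against that of the peaks they overlap in anestrus (squares, 3 pairs) or pregnancy (circles, 9 pairs), on log axes, with equality as a dashed line. All pairs lie within a factor of 4.44 of the line except GABPA, at 108 in estrus and 3.57 in pregnancy.

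The 10 estrus peaks without a pregnancy peak had a median fold enrichment of 3.24 (range 1.70 to 7.89). They included the RBM11 3′ UTR peak, the peaks of CXADR, ENSBGRG00000000034 and IFNAR1, GABPA peaks 1 and 2, BACH1 peaks 1, 3 and 4, and EVA1C peak 2. Among these, RBM11 (-19.3) and BACH1 peak 4 (-12.8) had a log10 p below -10, and the other 8 lay between -1.39 and -4.20. The absence of an entry in a list does not show that the mark is absent. In the other direction, 4 pregnancy peaks had no estrus peak, with a VGLL3 3′ UTR peak (982612 to 1011551, fold enrichment 4.15, log10 p -25.5) as the one with the lowest p-value. Another covers the first exon of RBM11 (14212338 to 14212548, fold enrichment 4.86) but is assigned to the gene LIPI in the list.

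With anestrus, the shared stretch reaches to 22449705 and holds 5 estrus and 9 anestrus peaks. Of these, 3 estrus peaks (60.0%) and 3 anestrus peaks (33.3%) overlapped. RBM11 shared 271 of its 301 bases at fold enrichments of 3.51 in estrus and 3.48 in anestrus. USP25 had identical ends in both lists, at 1.77 and 2.06. VGLL3 shared 61 exon bases, at 13.8 and 20.8. Anestrus had 6 peaks without an estrus peak. Their lowest log10 p was -44.6, in the CHODL 3′ UTR (18868344 to 18868581, fold enrichment 5.03). The others were in VGLL3, USP25, ENSBGRG00000000034 and NCAM2.

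The VGLL3 peak had fewer exon bases and a higher p-value in estrus than the entries it overlaps. It had 91 exon bases and a log10 p of -3.27 in estrus, 180 bases and -22.1 in anestrus, and 1072 bases and -25.9 in pregnancy. A VGLL3 peak in the 3′ UTR was listed in anestrus (982761 to 1011729, fold enrichment 6.13, log10 p -41.4) and, as above, in pregnancy, but not in estrus. Anestrus also had a VGLL3 peak in the 5′ UTR (956124 to 956392, fold enrichment 8.91, log10 p -1.95). Input FPKM of VGLL3 was 2.18, 0.135 and 2.81 in the estrus libraries, 2.24 to 6.41 in anestrus and 3.55 to 5.80 in pregnancy. Estrus and anestrus values overlapped, and the part of the input level in these p-values was not tested. ENSBGRG00000000034 was listed in all 3 stages, but its estrus peak overlapped none of the others.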

How the data were processed

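Ovarian poly(A) RNA was fragmented, and m6A-containing fragments were captured with an antibody and sequenced beside input RNA. The authors filtered reads (their methods and results name Trimmomatic and fastp), aligned them with HISAT2 (2.0.4 per the submitters' processing notes) to the Bos grunniens genome, and deposited StringTie FPKM values per gene and input library. The authors deposited 1 peak list per stage, annotated with ChIPseeker 1.18.0, with the fold enrichment as a ratio and score columns holding p-values and FDR as log10 values. The peak caller is not given in the sources used here. The tables in which the authors compared peaks between stages hold log2 fold changes and p-values and were not used. Incomplete last lines were left out (1 estrus peak and 1 gene).

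Coordinates are those of the authors' files. Block positions were rebuilt from block sizes and starts. Genes without a peak were counted among plus-strand genes of chromosome 1, ending with the last complete peak. Pregnancy peaks were taken from the first run of ascending positions, which follows the plus strand. Of 9 gene symbols with a peak, 9 are in the RefSeq table supplied (Bosgru_T2T1.0), used for names only. Sequence under the peaks is not analysed here.

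Input levels were tested by limma (version 3.58.1, under R 4.3.3; linear model of the 3 stages over 8 libraries, empirical Bayes with a trend, two-sided, Benjamini-Hochberg adjustment over 130 genes). The fit was tested on simulated data with the same spread in all genes. The planted changes were larger than those of the genes with a peak, so smaller changes were not covered by that test. The labels name healthy yaks slaughtered in each period and do not tie libraries to animals, so p-values measure only the spread between these samples. Other values used Python 3.11.15, with pandas 2.3.3, numpy 2.4.6 and scipy 1.17.1, and figures matplotlib 3.10.9. Every gene with a complete estrus peak was named, and of the genes without a peak the 3 highest and, from a mean FPKM of at least 1, the 3 lowest. Members and lists were chosen with earlier results of these data known. Alternatives were stricter peaks, other overlap rules, pseudocounts of 1 and 0.01, other FPKM minimums, quantile normalization, no trend, a replicate block, estrus library 2 included and each library left out.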

Additional observations from a re-analysis of the deposited data

How the results depend on the processing

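The peak list gave 18 peaks, 13 with a log10 FDR of at most -2 and 12 with a fold enrichment of at least 3. The difference in median log2(FPKM + 0.1) between genes with and without a peak was 2.52. It was 1.11 for peaks with a fold enrichment of at least 3, 1.64 with a pseudocount of 1, 1.38 against all genes without a peak in the table and 0.41 for genes with a symbol, and it turned to -0.23 where only genes from an FPKM of 1 were kept. Leaving out an estrus library gave 2.09 to 2.65. Counted by gene, 15 estrus peaks were in a gene of the pregnancy list on the shared stretch, against 8 by position. The IFNAR1 peak is not among the 15, since the pregnancy peak of that gene starts beyond the stretch. The RBM11 peak is not among them either, since the pregnancy peak on its first exon is assigned to LIPI.

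Of all genes tested, 2 were called in estrus against anestrus and 3 against pregnancy. With a pseudocount of 1 the counts were 1 and 1, and with estrus library 2 they were 5 and 5. In estrus against anestrus the count was 1 with an FPKM minimum of 1, and 4 without anestrus replicate 3, 9 without estrus replicate 3 and 1 without any 1 of the pregnancy replicates. In estrus against pregnancy it was 9 without estrus replicate 3 and 5 without pregnancy replicate 2. Over all libraries left out the counts were 1 to 9 and 3 to 9. By adjusted p the count was 0 in both, and in estrus against anestrus 1 with a pseudocount of 0.01 and 1 with an FPKM minimum of 1. With a library left out it was 0 to 5, the most without estrus replicate 3, and 0 to 1, respectively. Without estrus replicate 1 or 3 a lone estrus library is assumed to vary like the other groups.

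Among genes with a peak, signs turned for small changes. With estrus library 2, EVA1C was 0.43 against anestrus and 0.14 against pregnancy, and against pregnancy RBM11 was -0.0021, USP25 -0.088, BACH1 -0.52 and ENSBGRG00000000131 -0.19. With quantile normalization GABPA was 0.044 against anestrus, and USP25 was -0.11 and ENSBGRG00000000131 -0.073 against pregnancy. With a library left out, GABPA ranged from -0.13 to 0.12, EVA1C from -0.39 to 0.21 and ENSBGRG00000000131 from -0.29 to 0.078 against anestrus, and against pregnancy USP25 from -0.16 to 0.24, BACH1 from -0.10 to 0.22, ENSBGRG00000000131 from -0.040 to 0.086 and IFNAR1 from -0.62 to 0.069. The cause was not tested.

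No pairing of libraries across stages by replicate number was seen in the input levels, though the check cannot exclude one. Deviations of same-numbered libraries from their stage means correlated at -0.371 to 0.389 across genes. Those of libraries with different numbers correlated at -0.387 to 0.483. Of 9 libraries, 4 correlated best with one of their own number. With the replicate block the count in estrus against anestrus was 1, CXADR was -0.018 and EVA1C 0.035 against anestrus, and USP25 was -0.010 against pregnancy.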

Other observations

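The incomplete last entry of the estrus list gives a second IFNAR1 peak by its position (chromosome 1, 36965831 to 36967325) without a fold enrichment. It ends at the last base of IFNAR1. The pregnancy list has a peak at the same gene end (36967089 to 36967325), which overlaps this entry but not the complete IFNAR1 peak.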
